A study of Mus musculus with 4 samples.

Results

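*Ccn1*, *Ccn2*, *Ankrd1*, *Amotl2*, *F3*, *Crim1*, *Axl* and *Arhgef17* are 8 genes commonly read as transcriptional targets of YAP and TAZ. They were taken by symbol from the 22063 genes of the deposited count table, and all 8 had enough counts to be tested. RNA-sequencing was performed in TKPT cells, a line of mouse proximal tubule epithelial cells that the study calls TKPTS. All cells were kept at 1% O2 and 5% CO2 for 24 h and returned to normal oxygen for 12 h, so no library of cells outside this injury model was compared here. In 2 libraries the cells carried a control siRNA (si-NC, labelled Scrambled, replicates 2 and 3, genotype WT), and in the other 2 an siRNA against *Itgb6* (si-*Itgb6*, replicates 1 and 3, genotype given as knockdown). The cells are one immortal line, and nothing in the labels says whether the replicates came from separate cultures, so the p-values measure the spread between these libraries only, which may be technical.

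YAP and TAZ are coactivators without a DNA-binding domain of their own. When the Hippo kinases MST and LATS are active, YAP and TAZ are phosphorylated and held in the cytoplasm, and when the kinases are inactive they enter the nucleus and bind TEAD factors at promoters and enhancers, often together with AP-1. Stretch, adhesion through integrins and a contractile actin cytoskeleton favour the nuclear form, and in injured renal tubules the pathway is known for its link to repair and fibrosis. The comparison asks whether these targets differ, after hypoxia and reoxygenation, between cells given the control siRNA and cells given the *Itgb6* siRNA.

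Libraries held between 15435087 and 17220285 estimated counts. *Itgb6* itself, the gene that the siRNA was made against, had 285 and 284 counts in the si-NC libraries and 279 and 260 counts in the libraries labelled si-*Itgb6*. Its log2 fold change was -0.0051 (95% confidence interval from -0.27 to 0.26, adjusted p = 0.991, edgeR's quasi-likelihood test), so the counts did not show the knockdown that the labels name, and groups are called by their labels. The paper reports by western blot that the siRNA lowered integrin αvβ6 protein in hypoxic TKPTS cells, which RNA counts do not measure. Of 11 proximal tubule markers, *Slc34a1*, *Slc5a2*, *Slc5a12* and *Slc22a6*, which encode transporters of the mature tubule, had 0 counts in every library, while *Pax8* and the injury marker *Havcr1* were abundant. *Lrp2* and *Hnf4a* were also too low to be tested, with at most 17 counts and 1 count in a library. The summed level of the 11 markers was 548 to 614 CPM (the CPM unit of edgeR, counts relative to the library total after TMM scaling) in si-NC. It was 628 to 666 CPM in si-*Itgb6*. Of the 5 markers tested, *Aqp1* and *Havcr1* were called higher and 0 lower (edgeR). All 5 epithelial markers had a log2 fold change below 0, and *Krt8* was called lower. Their sum was 2588 to 2611 CPM in si-NC and 2368 to 2425 CPM in si-*Itgb6*, and the part of this in the results was not tested. Of 6 fibroblast, 5 endothelial and 6 macrophage markers, only 1, 1 and 2 had enough counts to be tested. Of those tested, 0 passed an adjusted p of 0.05, with 0, 0 and 1 below an unadjusted p of 0.05 (edgeR). DESeq2 called 0. The tested macrophage markers, *Cd68* and *Csf1r*, each had a log2 fold change of -0.15. Sums over all listed markers were at most 4.91 CPM for fibroblasts and 4.31 CPM for endothelium, in which *Emcn* was at 0. The sum was 121 to 141 CPM for macrophage markers, nearly all of it *Cd68* and *Csf1r*, while *Ptprc*, *Adgre1*, *Itgam* and *Cx3cr1* had at most 6 counts in a library.

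The promoters of the targets are shown first because TEAD factors, the DNA-binding partners of YAP and TAZ, recognise the letters GGAATG. The 250 bases before the RefSeq start (GRCm38.p6) were at hand for 6 of the 8 genes, all but *Ccn2* and *Arhgef17*. They were searched on both strands for GGAATG, for the AP-1 letters TGANTCA and for the CArG box of serum response factor. Windows of 5 of these 6 genes held GGAATG, against 12.6% of 32851 windows of all genes. The stretches with 20 bases on either side, as far as the window reaches, are given on the strand that reads GGAATG, which stands in capitals.
*Ccn1*, chr3:145650063-145650108, plus strand: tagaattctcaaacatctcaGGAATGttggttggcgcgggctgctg
*Ankrd1*, distal match, chr19:36120029-36120074, minus strand: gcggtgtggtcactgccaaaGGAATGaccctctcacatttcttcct
*Ankrd1*, proximal match, chr19:36119942-36119987, minus strand: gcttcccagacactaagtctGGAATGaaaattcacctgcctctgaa
*Amotl2*, chr9:102717719-102717764, minus strand: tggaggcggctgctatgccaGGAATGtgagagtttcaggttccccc
*Crim1*, chr17:78200149-78200194, plus strand: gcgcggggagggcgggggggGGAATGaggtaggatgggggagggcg
*Axl*, chr7:25788941-25788983, minus strand: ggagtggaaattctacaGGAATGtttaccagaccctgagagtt

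The matches began 103 bases before the RefSeq start in *Ccn1*, 210 and 123 bases before it in *Ankrd1*, 65 in *Amotl2*, 79 in *Crim1* and 233 in *Axl*. Gene positions given below are from another annotation (GENCODE). In *Ankrd1* and *Amotl2* the RefSeq start and the matches lie inside those positions. *F3* had no GGAATG in its window but held a pair of AP-1 matches, which began 146 and 135 bases before the start. An AP-1 match was present in 6.75% of all windows, and none of the other 5 genes had one. The *F3* window at chr3:121723287-121723536, plus strand, is given with both AP-1 matches in capitals.
*F3*: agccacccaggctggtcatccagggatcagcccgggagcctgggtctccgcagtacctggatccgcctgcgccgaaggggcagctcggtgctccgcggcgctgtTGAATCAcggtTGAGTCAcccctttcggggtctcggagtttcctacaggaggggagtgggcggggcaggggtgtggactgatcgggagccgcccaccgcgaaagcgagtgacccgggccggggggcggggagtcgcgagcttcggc

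The CArG box, found in 1.47% of all windows, was in 0 of the 6. These matches are letters in a short window and do not show binding.

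**Figure D1:**
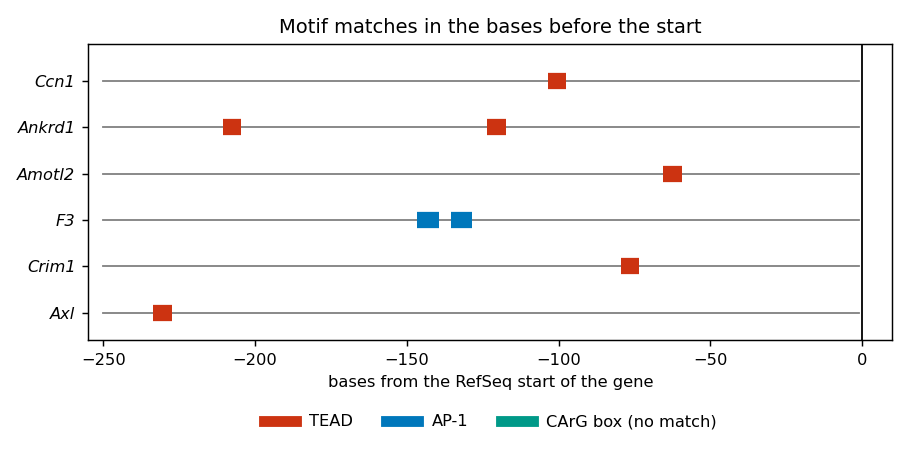
Motif matches in the 250 bases before the RefSeq start of 6 target genes, with the distance from the start in bases on the x axis and 1 line per gene. TEAD matches (red) lie between 233 and 60 bases before the start in 5 genes, and *F3* has 2 AP-1 matches (blue) instead.

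Of the 8 targets, *F3*, *Arhgef17* and *Ccn1* passed an adjusted p of 0.05 with less RNA in si-*Itgb6* than in si-NC, and 0 were higher (edgeR). Across the 11727 genes tested, 2.52% were lower and 2.11% higher by the same rule. *F3* fell by 23.1%, *Arhgef17* fell by 23.3% and *Ccn1* fell by 17.4%. With the thresholds of the study, which drop the adjustment of p but ask for a fold over 1.2, *Crim1* made it 4 of 8 lower, against 5.20% of all genes tested. In all 8 targets both libraries of one group lay above both of the other, which was also so for 49.2% of all genes tested, and in 7 of the 8 si-*Itgb6* was the lower pair, as in 25.4% of all genes tested. Their median log2 fold change was -0.20 and 7 of 8 values were below 0, while the median over all genes tested was 0.00017. The genes had been named with earlier results of these data in view, so these counts describe them and do not test them as a set. The cells were sequenced in bulk, in which fewer cells that express a gene and less RNA per cell cannot be told apart.

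**Figure D2:**
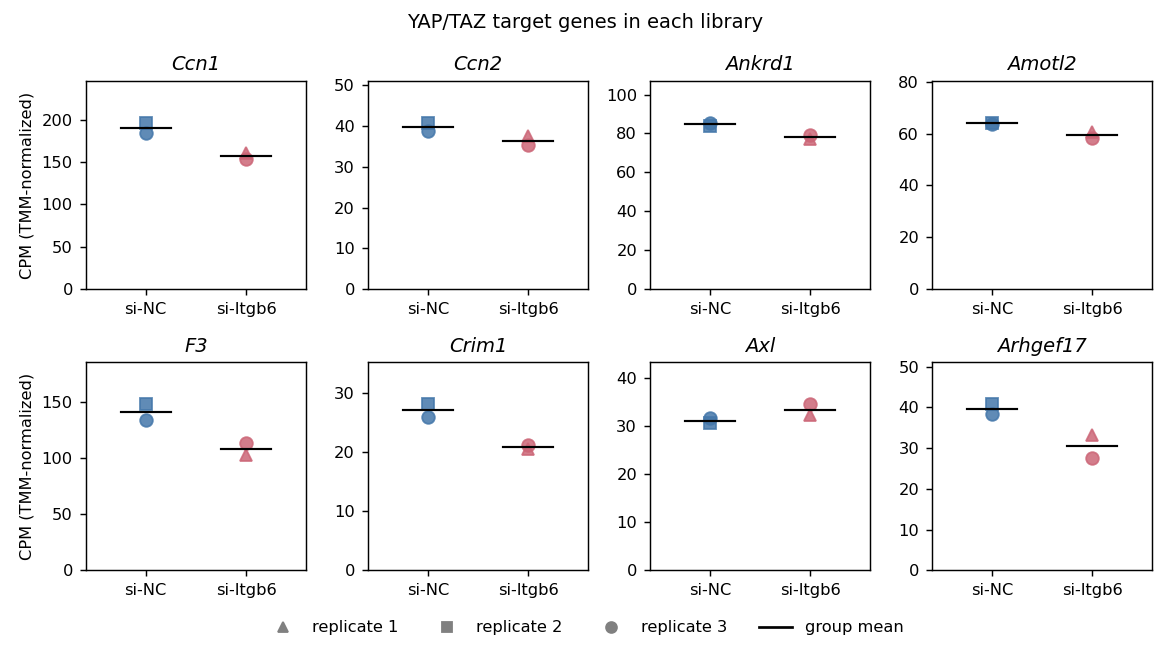
CPM of each target in each library (y axis from 0), with si-NC in blue and si-*Itgb6* in red, a symbol for each replicate number and a line at each group mean. The si-*Itgb6* points lie below the si-NC points in 7 genes and above them in *Axl*.

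*Ccn1* and *Ccn2* encode secreted matricellular proteins of the CCN family, which bind integrins and heparan sulfate proteoglycans and are among the most used readouts of YAP activity. *Ccn1* (ENSMUSG00000028195; GRCm38 chromosome 3 from 145646976 to 145649981, minus strand) stood at 197 and 185 CPM in si-NC replicates 2 and 3, and at 161 and 154 CPM in si-*Itgb6* replicates 1 and 3. Both si-NC libraries were above both si-*Itgb6* libraries, and the gap between group means exceeded that within either group. The means were 191 ± 8.54 CPM (SD, n = 2) and 158 ± 5.28 CPM (SD, n = 2), which gave a log2 fold change of -0.28 (SE 0.060, adjusted p = 0.00453, edgeR). When si-NC replicate 2 was left out this became -0.23 with an adjusted p of 0.343 (edgeR), while leaving out any other library kept it under 0.05.

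*Ccn2* (ENSMUSG00000019997; chromosome 10 from 24595442 to 24598683, plus strand) had 40.8 and 38.8 CPM in si-NC and 37.6 and 35.2 CPM in si-*Itgb6*. The si-NC libraries were the higher pair, but the nearest libraries of the groups lay closer together than the replicates of either group. Its log2 fold change of -0.13 (standard error 0.094, 95% confidence interval from -0.32 to 0.06) did not pass the test (adjusted p = 0.499, edgeR). An exon of *Gm15270*, on the opposite strand, overlaps *Ccn2*, and without strand information the reads of the pair cannot be separated. The other CCN genes were close to silent, with 0 counts of *Ccn4* and *Ccn5* in every library, at most 1 count of *Ccn6*, and 5, 13, 10 and 5 counts of *Ccn3*.

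At the cell surface, *F3* encodes tissue factor, the receptor for factor VII that starts coagulation and can also signal through protease-activated receptors. *F3* (ENSMUSG00000028128; chromosome 3 from 121723537 to 121735048, plus strand) was at 148 and 134 CPM in si-NC replicates 2 and 3 and at 103 and 114 CPM in si-*Itgb6* replicates 1 and 3. The groups were apart by more than either pair of replicates. It had the smallest p of the 8 genes, at rank 65 of all genes tested, at a log2 fold change of -0.38 (SE 0.068, adjusted p = 0.000750, edgeR). Without si-NC replicate 2 it was -0.31 with an adjusted p of 0.227 (edgeR), and the other 3 fits that left out a library stayed under 0.05. Of 7 partners of tissue factor, *F2r*, *F2rl1* and *Procr* were tested and 0 passed the adjusted p or an unadjusted p of 0.05 (edgeR). None was called by DESeq2, but it could not have called *Procr*, which had fewer counts than *Crim1*, a gene its low-count filter passed over. The receptors *F2r* and *F2rl1*, which encode PAR1 and PAR2, had log2 fold changes of 0.05 and 0.11. *F7* and *Tfpi2* had 0 counts in every library.

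*Crim1* encodes a membrane protein with cysteine-rich repeats that binds BMPs and is needed for kidney development. *Crim1* (ENSMUSG00000024074; chromosome 17 from 78200248 to 78376592, plus strand) had 28.1 and 25.9 CPM in si-NC and 20.5 and 21.3 CPM in si-*Itgb6*, so the si-NC libraries were the higher pair by more than the gap within either group. Its log2 fold change, -0.37 (SE 0.11), was close to those of *F3* and *Arhgef17*, but its adjusted p of 0.0565 missed the threshold (edgeR). The adjusted p was 0.0440 with no filter on low counts and 0.0480 with a stricter filter, but 0.0650 with RLE factors, 0.0584 with library size alone, 0.117 after a correction for GC content and length, and 0.0962 to 0.506 when 1 library was left out (edgeR). Exons of *Fez2*, on the opposite strand, overlap *Crim1*. Of 4 BMP ligands, 0 passed the adjusted p by edgeR. DESeq2 could call none, as each averaged fewer counts than *Crim1*, which its filter on low counts passed over. By edgeR, 1 ligand had an unadjusted p under 0.05. That gene was *Bmp2*, singled out after its values were seen, with 183, 151, 131 and 104 counts and an adjusted p of 0.206 (edgeR).

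*Axl* encodes a receptor tyrosine kinase of the TAM family, which binds GAS6. *Axl* (ENSMUSG00000002602; chromosome 7 from 25757273 to 25788705, minus strand) was at 30.5 and 31.6 CPM in si-NC and at 32.2 and 34.5 CPM in si-*Itgb6*. It was the 1 target of the 8 whose si-*Itgb6* libraries were the higher pair, and the nearest libraries of the groups differed by less than the replicates did. The log2 fold change was 0.10 (standard error 0.10, 95% confidence interval from -0.10 to 0.31, adjusted p = 0.641, edgeR), and its sign turned on the FPKM scale. *Gas6* had 1 count in 1 library and none in the others. Of the 4 ligands and receptors of this family on the list, 2 were tested. Of these, 0 passed the adjusted p, and 1, *Tyro3*, had an unadjusted p under 0.05 (adjusted p = 0.242, edgeR). DESeq2 could call neither of the 2, as both had fewer counts than *Crim1*, which its filter on low counts passed over.

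Inside the cell, *Arhgef17* encodes a guanine nucleotide exchange factor that activates RhoA. *Arhgef17* (ENSMUSG00000032875; chromosome 7 from 100869752 to 100932107, minus strand) was at 40.8 and 38.4 CPM in si-NC replicates 2 and 3, and at 33.3 and 27.5 CPM in si-*Itgb6* replicates 1 and 3. All si-NC values were above the si-*Itgb6* values, and the 2 si-*Itgb6* libraries differed from each other by 0.28 on the log2 scale, more than in the other 7 targets on that scale. The means were 39.6 ± 1.69 CPM (SD, n = 2) and 30.4 ± 4.12 CPM (SD, n = 2), and the log2 fold change was -0.38 (SE 0.10, adjusted p = 0.0258, edgeR). The call was lost in 3 of the 4 fits that left out a library, in which the lone library of a group is assumed to vary like the pair of the other. The log2 fold change was -0.25 without si-*Itgb6* replicate 3 (adjusted p = 0.285), -0.34 without si-NC replicate 2 (adjusted p = 0.408) and -0.42 without si-NC replicate 3 (adjusted p = 0.123, all edgeR). With DESeq2 the adjusted p was 0.101. The longest transcript of *Arhgef17* had a GC content of 58.0%, above that of 90.4% of the genes tested. Over the 11709 genes with a known GC content, fold change and GC content had a Spearman correlation of -0.36, a description across genes, which are not independent. After a correction of each library for GC content and length, *Arhgef17* was at -0.29 with an adjusted p of 0.135 (edgeR). *Mir3102* lies within its exons on the same strand. Of 5 genes of RhoA signalling, 1 was higher, *Rock1*, a kinase that RhoA activates, at 58.9 and 56.5 CPM in si-NC and 70.7 and 73.6 CPM in si-*Itgb6* (log2 fold change 0.32, adjusted p = 0.0112, edgeR). After the GC and length correction *Rock1* had an adjusted p of 0.128 (edgeR), and without 1 library it was over 0.05 in 3 of the 4 fits.

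*Amotl2* encodes an angiomotin, a junctional scaffold that binds YAP and is itself a YAP target. *Amotl2* (ENSMUSG00000032531; chromosome 9 from 102716672 to 102733418, plus strand) was at 64.2 and 63.6 CPM in si-NC and at 60.4 and 58.1 CPM in si-*Itgb6*. The si-NC libraries were the higher pair, with a log2 fold change of -0.11 (standard error 0.078, 95% confidence interval from -0.27 to 0.05, adjusted p = 0.491, edgeR). After the GC and length correction its value was 0.0088, so its direction depended on that step. The related *Amot* and *Amotl1* had log2 fold changes of -0.03 and -0.06, and neither passed the test (adjusted p = 0.929 and 0.690, edgeR).

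*Ankrd1* encodes an ankyrin repeat protein of the sarcomere and nucleus and is widely used as a YAP readout. *Ankrd1* (ENSMUSG00000024803; chromosome 19 from 36111961 to 36120099, minus strand) was at 83.8 and 85.6 CPM in si-NC and at 76.9 and 79.3 CPM in si-*Itgb6*. The si-NC libraries were again the higher pair, by a log2 fold change of -0.12 (standard error 0.072, 95% confidence interval from -0.26 to 0.03) that did not pass the test (adjusted p = 0.415, edgeR). The interval holds no fall beyond 0.26 on the log2 scale. *Ankrd1* is the gene with 2 TEAD matches before its RefSeq start, which lies inside the positions given here. Whether such matches go with a change in RNA was not tested.

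**Figure D3:**
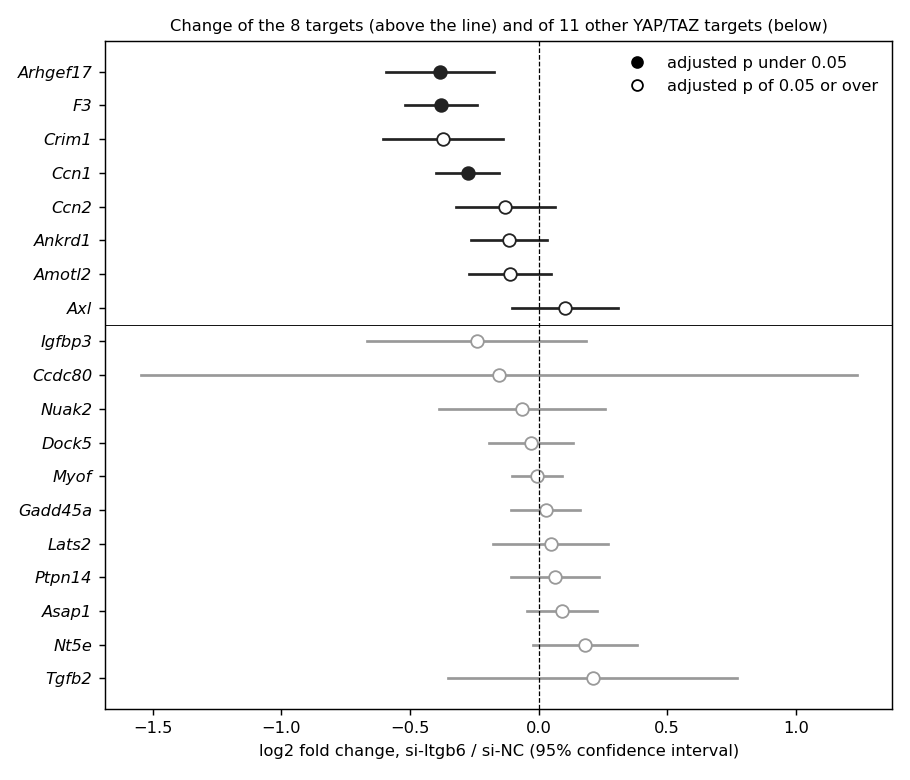
Log2 fold change (si-*Itgb6* over si-NC) with its 95% confidence interval for the 8 targets, above the line, and for 11 other YAP/TAZ targets, below it. Filled points have an adjusted p under 0.05, and they are *Arhgef17*, *F3* and *Ccn1*.

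The 8 genes fell into 4 with log2 fold changes between -0.38 and -0.28 (*Arhgef17*, *F3*, *Crim1* and *Ccn1*), 3 between -0.13 and -0.11 (*Ccn2*, *Ankrd1* and *Amotl2*), and *Axl* at 0.10. The confidence intervals of neighbours in this order overlapped. Across libraries, si-NC replicate 2 held the highest value of 6 targets. The lowest value was in si-*Itgb6* replicate 3 for 4 targets and in si-*Itgb6* replicate 1 for 3. Averaged over the 8, log2 CPM stood 0.13 and 0.08 above each gene's own mean in si-NC replicates 2 and 3, and at -0.09 and -0.11 relative to it in si-*Itgb6* replicates 1 and 3. The genes outside the 8 whose centred values lay nearest to this average over the 4 libraries were *Basp1*, *Ubr2* and *Epop*, at Euclidean distances of 0.013, 0.017 and 0.019 on the log2 scale.

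Levels were compared between genes on the FPKM scale (fragments scaled by transcript length and library total), which the authors deposited. *Ccn1* was the highest at a mean of 86.3 FPKM over the 4 libraries, followed by *F3* at 66.7 FPKM, and the ranges of this pair overlapped. *Ankrd1* followed at 40.3 FPKM, below every library of *F3*. *Amotl2* at 16.5 FPKM and *Ccn2* at 15.9 FPKM had overlapping ranges, as had *Arhgef17* at 5.40 FPKM and *Crim1* at 5.12 FPKM, with *Axl* at 7.97 FPKM between these pairs. The most abundant target stood above 91.7% of the genes tested and the least abundant above 37.2%. On this scale *Crim1* differed more between the si-*Itgb6* libraries (5.11 and 3.73 FPKM) than its CPM did, and *Axl* had 8.18 and 7.82 FPKM in si-NC and 7.76 and 8.12 FPKM in si-*Itgb6*, so its groups overlapped.

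**Figure D4:**
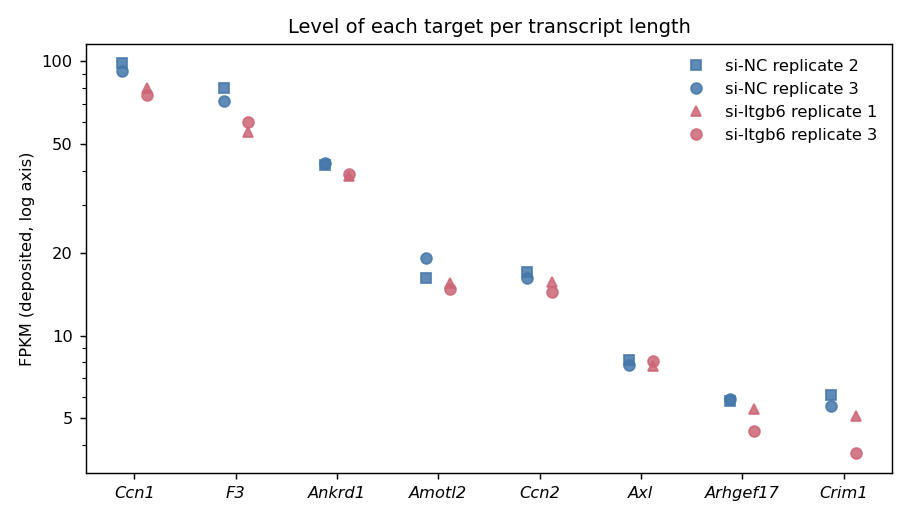
Deposited FPKM (log axis) of the 8 targets in each library, in order of their mean. *Ccn1* and *F3* are the highest, and *Axl* is the gene whose groups overlap.

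A list of 14 other YAP/TAZ targets was set beside the 8. Of these, 11 were tested, and 0 had an adjusted p under 0.05 (edgeR), 0 an unadjusted p under 0.05, and 0 were called by DESeq2. DESeq2 could not have called *Igfbp3*, *Ccdc80*, *Nuak2* or *Tgfb2*, which had fewer counts than *Crim1*, a gene its low-count filter passed over. The log2 fold changes of the 11 ran from -0.24 for *Igfbp3* to 0.21 for *Tgfb2*, with 5 below 0 and a median of 0.03. Libraries of the groups did not overlap in 3 of the 11, all with the si-*Itgb6* libraries higher (*Asap1*, *Nt5e* and *Tgfb2*), against the 49.2% of all genes tested given above for either direction. *Myof*, the most abundant of the list by count, had 8406 and 8796 counts in si-NC and 8015 and 8282 counts in si-*Itgb6*, and its interval was narrow around 0 (log2 fold change -0.0056, standard error 0.048).

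Upstream of the targets, *Yap1* was the 1 gene called among 8 tested YAP, TAZ, TEAD and VGLL genes. It was at 91.1 and 75.2 CPM in si-NC and at 64.5 and 69.4 CPM in si-*Itgb6*, and the 2 si-NC libraries differed by more than the nearest libraries of the groups did. Its log2 fold change was -0.31 (standard error 0.083, adjusted p = 0.0239, edgeR), and the call was lost without si-NC replicate 2 (-0.17, adjusted p = 0.636), narrowly without si-*Itgb6* replicate 1 (adjusted p = 0.0528) and with DESeq2 (adjusted p = 0.0729). *Gm20416* overlaps its exons on the other strand. *Wwtr1*, which encodes TAZ, had a log2 fold change of -0.03 (95% confidence interval from -0.16 to 0.10, adjusted p = 0.870, edgeR). In the kinase cascade, 1 of 15 genes, *Lats1*, was higher and 0 were lower, at a log2 fold change of 0.28 and an adjusted p of 0.0422 (edgeR) that RLE scaling, library size alone, the GC and length correction and DESeq2 each took over the threshold, as did 3 of the 4 fits that left out a library. Among 5 angiomotins and LATS-binding LIM proteins *Ajuba* was lower, from 74.1 and 65.3 CPM in si-NC to 50.6 and 44.5 CPM in si-*Itgb6* (log2 fold change -0.55, adjusted p = 0.000136, edgeR). Without si-NC replicate 2 *Ajuba* was at -0.46 with an adjusted p of 0.0997 (edgeR), and it stayed under 0.05 in the other 3 fits that left out a library, with DESeq2 and after the GC and length correction.

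Of 9 genes for SRF, its MRTF cofactors and AP-1 subunits, which share many promoters with YAP and TEAD, *Srf*, *Junb* and *Jund* were lower and 0 higher. *Srf*, which encodes serum response factor, was at 34.2 and 32.3 CPM in si-NC and 25.5 and 23.1 CPM in si-*Itgb6* (log2 fold change -0.45, adjusted p = 0.0103, edgeR). *Jund* and *Junb*, subunits of AP-1, had log2 fold changes of -0.34 and -0.23 (adjusted p = 0.00266 and 0.0161, edgeR), and exons of each overlap a gene on the opposite strand. After the GC and length correction these were -0.26, -0.12 and -0.07 for *Srf*, *Jund* and *Junb*, none of them passed the test (adjusted p = 0.223, 0.388 and 0.578, edgeR), and all 3 calls were also lost when either si-NC library was left out, at -0.41, -0.31 and -0.20 without replicate 2 and -0.49, -0.36 and -0.26 without replicate 3. *Srf* and *Jund* lost theirs without si-*Itgb6* replicate 3 as well (adjusted p = 0.0756 and 0.0786, edgeR). *Ccn1* and *F3* stayed under 0.05 after the same correction, at -0.24 and -0.43 (adjusted p = 0.0269 and 0.000936, edgeR). Of 7 tested CCN-binding integrin genes, 0 had an adjusted or unadjusted p under 0.05 (edgeR) and 0 were called by DESeq2, with log2 fold changes from -0.12 to 0.09. DESeq2's low-count filter passed over *Itgb6*, and *Itgb3* and *Itga5* had still fewer counts, so it could not have called these genes.

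**Figure D5:**
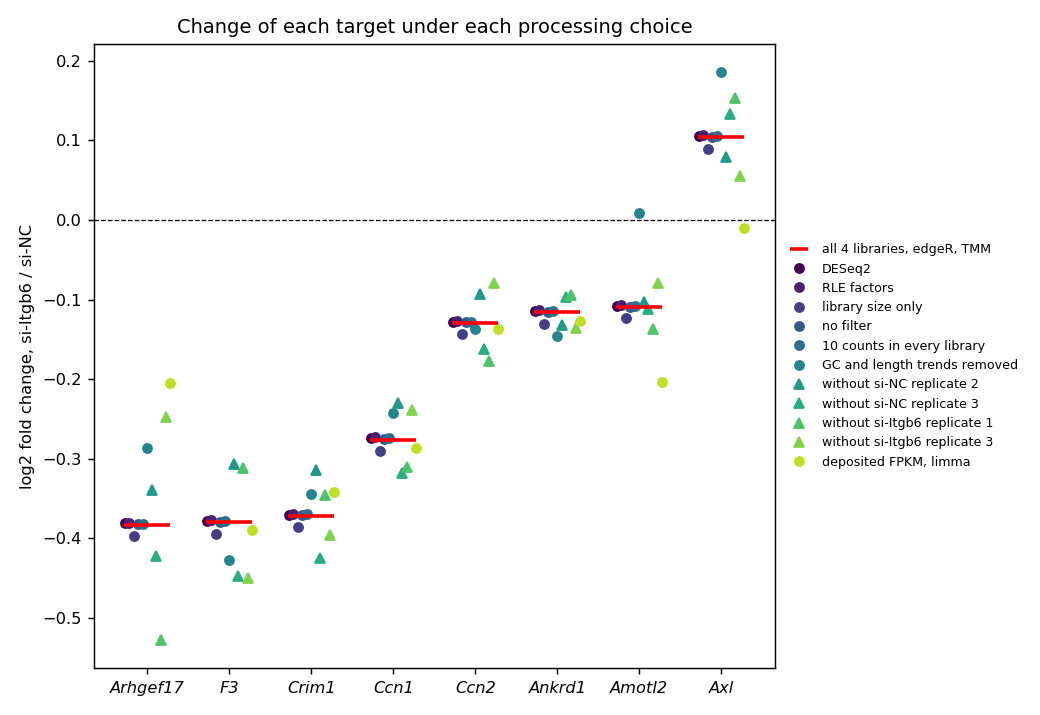
Log2 fold change (si-*Itgb6* over si-NC) of each target in the fit of all 4 libraries (red bar) and under each alternative, with circles for other tests, scalings or filters and triangles for fits that leave out 1 library. *Amotl2* and *Axl* each cross 0 under 1 alternative, and the other 6 stay below 0 throughout.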

How the data were processed

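Polyadenylated RNA of TKPTS cells was sequenced in pairs without strand information (2 si-NC and 2 si-*Itgb6* libraries). The authors deposited estimated counts per gene, not normalized and not whole for 1447 to 1500 genes per library, and FPKM values. The aligner, counter and genome build are not given in the sources used here. Counts were rounded and filtered with filterByExpr (minimum count 10, minimum total 15). They were then scaled by TMM and compared in R 4.3.3 by the edgeR 4.0.16 quasi-likelihood test, and p-values of all 11727 genes tested were adjusted after Benjamini-Hochberg. DESeq2 1.42.0 and limma 3.58.1, the latter on log2(FPKM + 1), were alternatives, the limma fit chosen after seeing the data. A standard error (SE) is the absolute log2 fold change divided by the root of F. The 2 replicates of a group differed by 3.21 and 4.08 chi-square units per gene, more than sampling noise. Of the identifiers, 99.6% were found in GENCODE vM21 (GRCm38), the source of positions, overlaps and GC content, and promoters were from RefSeq. Trends on GC content and length were lowess curves (span 0.3) entered as offsets. Genes named are the 8 targets, *Itgb6*, *Yap1*, *Wwtr1*, list genes with an adjusted p under 0.05, markers at 0 and the 3 genes nearest in profile. Others are examples chosen after their values were seen. The members and lists were chosen with earlier results of these data known.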

Additional observations from a re-analysis of the deposited data

How the results depend on the processing

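No paired analysis was possible because the groups share 1 replicate number. Leaving out each library in turn gave 0 to 3 targets called lower and 0 higher, with 0 when si-NC replicate 2 was left out (4 lower at an unadjusted p under 0.05, edgeR, as were 584 of all genes, with 518 higher). The number of genes called then fell to 6 lower and 7 higher over all genes, against 295 and 247 with all libraries. Across these fits all genes gave 6 to 413 lower and 7 to 368 higher calls. The log2 fold changes ranged from -0.32 to -0.23 for *Ccn1*, -0.45 to -0.31 for *F3* and -0.53 to -0.25 for *Arhgef17*. *Itgb6* ranged from -0.10 to 0.09, reversing to 0.038 when si-NC replicate 2 and to 0.091 when si-*Itgb6* replicate 3 was left out, and *Wwtr1* from -0.078 to 0.027, the latter a reversal without si-NC replicate 2. DESeq2 called 2 targets lower, with *Arhgef17* at -0.38 not passing, and 148 lower and 140 higher genes in all. *Crim1* was passed over by DESeq2's filter and passed the edgeR test at -0.37 with no filter and at -0.37 with at least 10 counts in every library. With the GC and length trends removed, 2 targets were called lower, *Arhgef17* at -0.29 was not, *Amotl2* reversed to 0.0088, and 104 genes were lower and 115 higher. With limma on the deposited FPKM values, 0 targets and 0 of all genes passed the adjusted p, with 2 targets and 1031 and 669 genes lower and higher at an unadjusted p under 0.05. There *Ccn1* was -0.29, *F3* -0.39 and *Arhgef17* -0.20, and *Axl* reversed to -0.0096; the cause was not tested. The study's thresholds, with no adjustment but a fold over 1.2, called 610 lower and 512 higher genes in the edgeR fit made here. In both directions this was more than the paper reports at these thresholds, and the cause was not tested. RLE factors and library size alone kept the 3 calls. With 317 to 458 counts a library, *Crim1* had the largest standard error of the 8, 0.11, against 0.060 for *Ccn1* at 2498 to 3211 counts.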
